A study of Mus musculus with 13 samples.

Results

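Fatty acids reach a muscle fibre in steps, and 10 genes of these steps were followed here in the gastrocnemius, a calf muscle, of mice that carry a UCP1 transgene and of wild-type mice. The genes were taken by name, as every non-control probe of the array design whose gene name was Cd36, Lpl, Gpihbp1, Angptl4, Vldlr, Fabp3, Slc27a1, Slc27a4, Acsl1 or Slc22a5. All 10 were found, with 14 of the 55681 probes of the array. All 14 probes passed the filter on dim probes, so the 10 genes stand among 17257 genes tested, and 4 of them had 2 probes each.

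The arrays came from 13 adult male mice on the C57BL/6J background, 6 labelled wild type and 7 littermates labelled with a UCP1 transgene in skeletal muscle. UCP1, normally found in brown fat, lets protons leak back into mitochondria without making ATP, and the sources used here do not name the promoter that drives the transgene. The study compared mice from the age of 12 weeks, and both groups ate a purified low fat diet for 12 weeks. Each array held the RNA of 1 mouse in the Cy5 channel against 1 pool of samples in the Cy3 channel, and all values below are log2 ratios to that pool, or differences of them (transgenic less wild type). Since each sample is labelled as an individual mouse, p-values measure the spread between mice.

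Triglyceride arrives at muscle in lipoproteins and is split by lipoprotein lipase on the wall of the capillary, where GPIHBP1 holds the enzyme and ANGPTL4 inactivates it. The VLDL receptor binds triglyceride-rich lipoproteins near the enzyme. The released fatty acids cross the membrane with CD36 and the fatty acid transport proteins, are carried in the cytosol by FABP3, the heart and muscle binding protein, and are trapped as acyl-CoA by long-chain acyl-CoA synthetases, of which ACSL1 is the main one of muscle. Entry into mitochondria then needs carnitine, which the transporter OCTN2, the product of Slc22a5, brings into the cell. Several of these genes are textbook targets of the PPAR receptors, and Vldlr is also known as a target of the stress factor ATF4.

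Per array, 20643 to 24036 probes exceeded background clearly in Cy5, where the median spot read 40.4 to 50.8 intensity units. Ucp1, which checks the labels, was at -0.20 to 0.85 on the 7 transgenic arrays and at -4.23 to -2.82 on 5 of the arrays labelled wild type, but at 0.45 on the array labelled wild type 4, which goes against its label. For Vldlr, Cd36, Fabp3, Lpl and the share of all genes called, results are therefore also given without that array. All 10 markers of skeletal muscle were measured, but so were all 10 of endothelial cells and of fibroblasts. This count therefore does not single out the labelled tissue. Of the skeletal muscle markers, 7 were lower in the transgenic samples (0 lower when arrays were only centred on their median).

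The 3 genes that passed the test described below were Vldlr, Cd36 and Fabp3, the last by a narrow margin. To place them in the genome, the promoter windows of these genes, 250 bases before to 50 after an annotated start, are shown 5′ to 3′ as RefSeq gives them for GRCm38.p6. Vldlr has 2 annotated starts. Capitals mark the element AGGTCA of nuclear receptors, on either strand, which was the only one of 3 motifs found in these windows.
Cd36, chr5:17835847-17836146, minus strand: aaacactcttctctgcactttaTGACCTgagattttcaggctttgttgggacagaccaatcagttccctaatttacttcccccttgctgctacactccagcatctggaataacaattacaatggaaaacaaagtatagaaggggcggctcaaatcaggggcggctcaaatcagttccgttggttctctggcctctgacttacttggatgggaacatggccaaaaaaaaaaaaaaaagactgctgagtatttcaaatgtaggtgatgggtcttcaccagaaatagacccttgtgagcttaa
Vldlr, first start, chr19:27216234-27216533, plus strand: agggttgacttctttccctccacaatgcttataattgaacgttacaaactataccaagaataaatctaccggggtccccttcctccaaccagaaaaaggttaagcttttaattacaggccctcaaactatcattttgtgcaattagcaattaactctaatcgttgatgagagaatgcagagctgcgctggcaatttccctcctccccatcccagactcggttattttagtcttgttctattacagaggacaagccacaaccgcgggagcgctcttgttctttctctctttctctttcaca
Vldlr, second start, chr19:27216770-27217069, plus strand: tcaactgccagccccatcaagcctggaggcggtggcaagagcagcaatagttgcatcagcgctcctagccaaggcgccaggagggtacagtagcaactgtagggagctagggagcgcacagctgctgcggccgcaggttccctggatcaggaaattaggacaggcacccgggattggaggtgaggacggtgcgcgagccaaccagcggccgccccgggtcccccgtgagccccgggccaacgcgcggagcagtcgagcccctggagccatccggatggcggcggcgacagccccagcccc
Fabp3, chr4:130308488-130308787, plus strand: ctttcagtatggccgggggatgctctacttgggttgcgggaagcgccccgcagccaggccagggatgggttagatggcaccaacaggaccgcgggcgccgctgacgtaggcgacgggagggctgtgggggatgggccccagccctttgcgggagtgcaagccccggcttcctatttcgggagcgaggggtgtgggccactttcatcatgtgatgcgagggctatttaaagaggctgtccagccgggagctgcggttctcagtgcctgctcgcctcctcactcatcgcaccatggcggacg
The table held promoters for 7 of the 10 genes, in 11 windows. On both strands, AGGTCA was in 1 of the 11, that of Cd36, against 16.3% of all 32851 promoters of that length. The PPAR element AGGTCANAGGTCA, which holds those letters 2 times and so overlaps it, was in 0 of the 11 and in 0.0396% of all promoters. The C/EBP-ATF element TGATGNAAT was in 0 of the 11 and in 0.965% of all. A match or its lack describes these letters in these windows only.

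Between the groups, Vldlr fell and Cd36 rose, Fabp3 was lower by a narrow margin, and 7 of the 10 genes did not pass the test. The test was limma with Benjamini-Hochberg adjustment over the 17257 genes at a threshold of 0.05. It called 1 member higher and 2 lower, 3 of 10 or 30%, while 33.0% of all genes were called (16.8% higher and 16.1% lower), so the share called in this pathway is near that of the whole array. The median difference of the 10 genes was 0.02, that of all genes -0.0011. In 2 of the 10, Vldlr and Cd36, the arrays of the groups did not overlap, which was so in 14.6% of all genes (7.42% higher and 7.20% lower). Taken probe by probe, 31.8% of all kept probes were called, and both probes of Vldlr and of Fabp3 were among them. The 2 probes of Fabp3 share 51 bases and are not separate evidence. The background moved with the processing: 38.2% of genes were called with Agilent's own log ratio, 31.9% in the authors' value table, 35.7% under a fixed slide block, 31.1% with the replicate number as a block and 32.6% without the array labelled wild type 4. It was 11.1% with the mean of the adipocyte markers as a covariate, and 7.57% when arrays were only centred on their median, where limma called 0 of the 10 genes and 3 had an unadjusted p under 0.05. That scaling moved the median of all genes to 0.14, and relative to it Vldlr was at -0.70, Cd36 at 0.59 and Fabp3 at -0.11. A lower value in whole muscle can come from less RNA per cell or from fewer cells of a type, and the arrays cannot tell these apart.

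**Figure D1:**
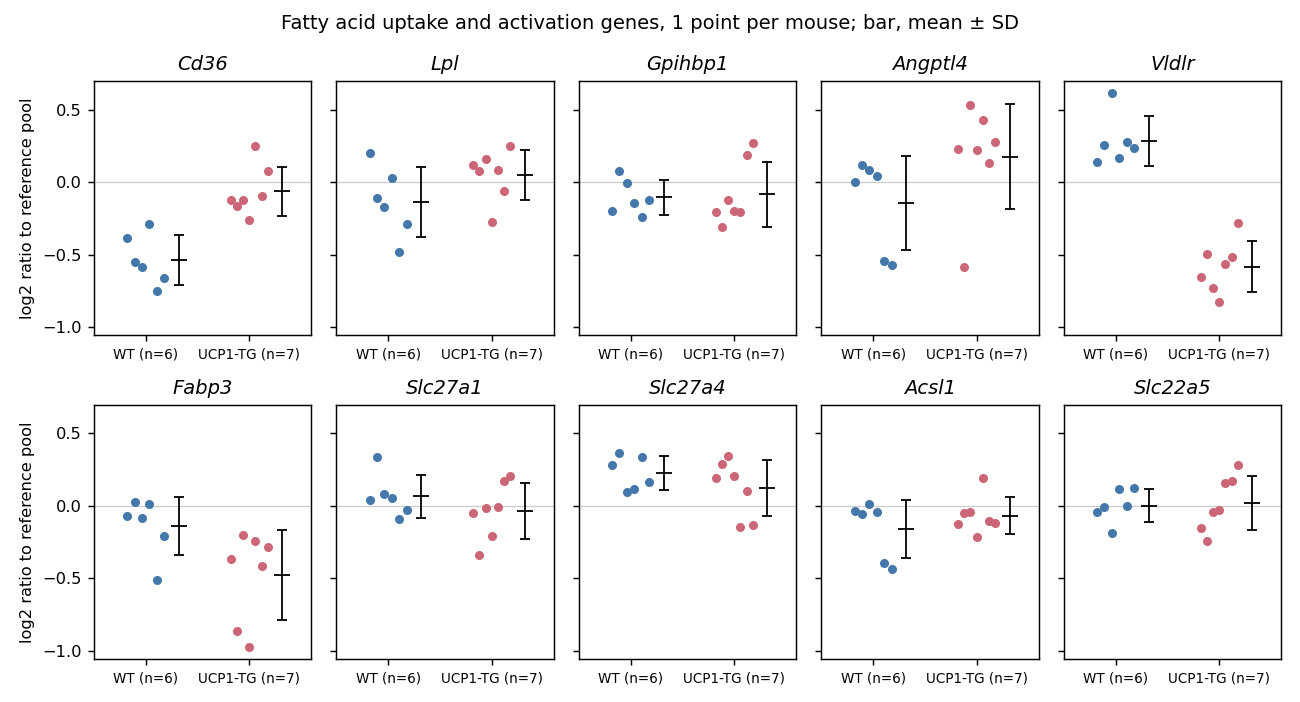
Log2 ratio to the reference pool (vertical axis) of each of the 10 genes on each array, with wild-type mice (n = 6) in blue and UCP1 transgenic mice (n = 7) in red; bars give the mean ± SD. Only in the panels of Vldlr and Cd36 do the points of the groups stay apart.

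Vldlr, the receptor for triglyceride-rich lipoproteins, showed the largest difference of the 10. Its log2 ratio had a lowest, median and highest value of 0.14, 0.25 and 0.62 on the 6 arrays labelled wild type. On the 7 transgenic arrays these values were -0.83, -0.57 and -0.28. All 7 transgenic arrays lay below all 6 wild-type arrays, with the highest wild-type value on array 3. The means were 0.28 ± 0.17 (SD, n = 6) and -0.58 ± 0.18 (SD, n = 7), a difference of -0.86 ± 0.09 (SE), or 1.82-fold lower RNA (limma, Benjamini-Hochberg adjusted p = 4.5e-07). Of the 17257 genes, 398 differed by more. Within the 4 slides the difference was -1.17 to -0.66, and without the array labelled wild type 4 it was -0.89. The second probe of the gene told the same: at chr19:27321104-27321163 (mm9) it read -0.71 ± 0.10 (SE), against the first at chr19:27324050-27324109, 2886 bases away, and its groups did not overlap either. The call of Vldlr ended when arrays were centred on their median without loess, where the difference was -0.56 (adjusted p = 0.135). The mean of the skeletal muscle markers, most of them fast-fibre genes, was also lower in the transgenic samples, at -0.35 to -0.07 against 0.18 to 0.44, and its part in the difference of Vldlr or Fabp3 was not tested.

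Cd36, the fatty acid translocase of the plasma membrane, was the one member called higher. Its probe lies at chr5:17288600-17288659 (mm9, minus strand). Its log2 ratio was -0.75, -0.57 and -0.29 at the lowest, median and highest of the 6 wild-type arrays. The same values were -0.26, -0.12 and 0.25 on the 7 transgenic arrays. The groups lay next to each other without overlap, and the highest wild-type value was that of the array labelled wild type 4. The means were -0.54 ± 0.17 (SD, n = 6) and -0.06 ± 0.17 (SD, n = 7), a difference of 0.47 ± 0.09 (SE) or 1.39-fold (limma, adjusted p = 3.5e-04). Within slides it was 0.24 to 0.70, with the largest value on slide 4. Without the array labelled wild type 4 it was 0.52 ± 0.09 (SE). Under median centring without loess Cd36 was at 0.73 with no call (adjusted p = 0.056).

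CD36 is made by fat and capillary cells as well as by fibres, and markers of some other cells moved with the groups. Of 10 markers of white adipocytes 9 were measured, 6 were higher and 0 lower, and Lep did not pass the filter on dim probes. Their mean log2 ratio was -0.19 to 0.23 on the transgenic arrays and -0.84 to 0.05 on the wild-type arrays, where 0.05 was that of array 4 and the next highest was -0.66. With this mean as a covariate the difference of Cd36 was 0.32 ± 0.16 (SE) and no longer passed (adjusted p = 0.228), while that of Vldlr was -0.64 ± 0.15 (SE) and did (adjusted p = 0.010). Apart from the array labelled wild type 4, this mean did not overlap between the groups, so the covariate is nearly the group itself, its fit rests on the array whose Ucp1 goes against its label, and the SE of Cd36 grew from 0.09. The part of the adipocyte markers in the difference of Cd36 therefore cannot be told apart from the group. Slow-fibre genes rose in 9 of 9, with a mean of 0.03 to 0.60 on transgenic and -1.10 to -0.01 on wild-type arrays. Of 10 endothelial markers 0 were higher and 1 lower, by the same limma test. Of 9 measured macrophage markers 0 were higher and 2 lower, and of 10 fibroblast markers 2 were higher and 0 lower. Smooth muscle and pericyte markers were higher in 1 of 10 and lower in 1. Nerve and Schwann cell markers were higher in 6 of 9 and lower in 0, and erythroid markers higher in 4 of 6 and lower in 0. The part of the slow-fibre, macrophage, fibroblast, nerve and erythroid genes in the difference of Cd36 was not tested.

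The other gates of the membrane gave no call. Slc27a1, the muscle form of the fatty acid transport proteins, ranged over -0.09 to 0.34 on wild-type arrays and over -0.34 to 0.21 on transgenic ones. The difference was -0.10 with a 95% interval of -0.29 to 0.09. Slc27a4, a second form that occurs widely in tissues, was at 0.09 to 0.36 and -0.15 to 0.35, a difference of -0.10 with an interval of -0.28 to 0.08. For both genes 2 transgenic arrays lay below all wild-type arrays and none above. Slc27a4 was dim, with a median signal of 58.8 units over the local background, and the offset used in background correction draws such ratios toward 0. With Agilent's own log ratio Slc27a4 was at -0.21 ± 0.19 (SE), without a call.

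**Figure D2:**
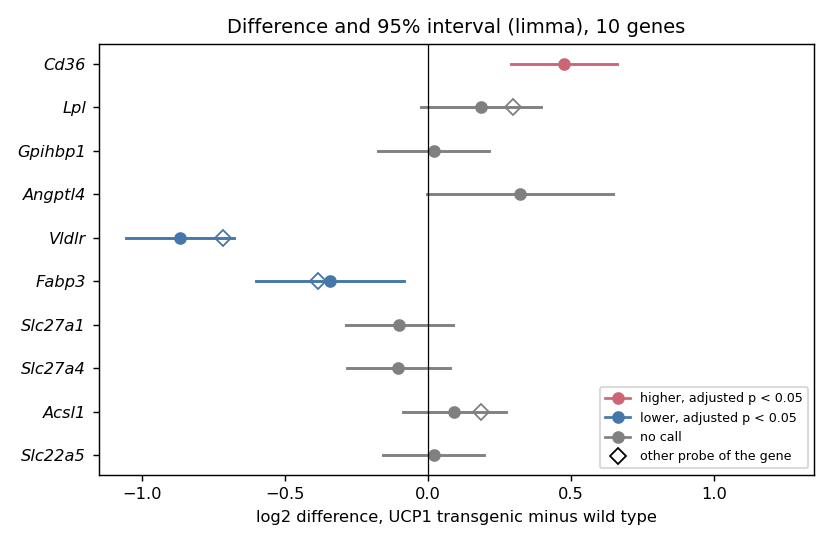
Difference of each gene in log2 units (horizontal axis), transgenic minus wild type, with its 95% interval from limma; red and blue mark genes called higher and lower, grey those without a call, and open diamonds the second probe of a gene. Vldlr stands apart at -0.86, Cd36 at 0.47, and the interval of Fabp3 comes close to 0.

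On the capillary side, neither the lipase nor its partners passed the test. Lpl, the lipase itself, ranged over -0.48 to 0.20 on wild-type arrays and over -0.28 to 0.25 on transgenic ones, and only 1 transgenic array lay above all wild-type arrays. The difference was 0.19 ± 0.10 (SE, adjusted p = 0.170), and 0.30 ± 0.13 (SE) on its other probe, 5157 bases away. The lowest wild-type values of Lpl were those of arrays 5 and 6, which share slide 4, where the difference was 0.48, against -0.12 on slide 3. The only wild-type array of slide 3 was the one labelled wild type 4. Without that array the difference of Lpl was 0.22 ± 0.11 (SE, limma, adjusted p = 0.124). Gpihbp1, which carries the lipase to the capillary lumen, differed by 0.02, with an interval of -0.17 to 0.21. It spread more among transgenic arrays (-0.31 to 0.27) than among wild-type arrays (-0.24 to 0.07).

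Angptl4, the inhibitor of the lipase and a target of PPAR receptors, varied more between mice than any other member. Its log2 ratio was -0.58, 0.02 and 0.12 at the lowest, median and highest of the 6 wild-type arrays. On the 7 transgenic arrays it was -0.59, 0.23 and 0.53. In 6 of the 7 transgenic samples it exceeded every wild-type value, but transgenic array 2 lay below all of them, and wild-type arrays 5 and 6 read -0.54 and -0.58. The difference was 0.32 ± 0.15 (SE), with an interval of -0.00 to 0.65 and no call (limma, adjusted p = 0.121). Without transgenic array 2 it was 0.45 ± 0.12 (SE, adjusted p = 0.0072), and with the slide as a fixed block 0.37 ± 0.13 (SE, adjusted p = 0.040). Within slides it ran from -0.18, on the slide of transgenic array 2, to 0.76.

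Fabp3, the binding protein that ferries fatty acids through the cytosol of muscle, was lower in the transgenic samples on its probe at chr4:129992652-129992711 (mm9, plus strand). The wild-type arrays had a lowest, median and highest log2 ratio of -0.51, -0.08 and 0.03. The transgenic arrays had -0.98, -0.37 and -0.20. The groups overlapped, since only transgenic arrays 2 and 4 lay below all wild-type arrays. The means were -0.14 ± 0.20 (SD, n = 6) and -0.48 ± 0.31 (SD, n = 7), a difference of -0.34 ± 0.12 (SE), or 1.27-fold lower (limma, adjusted p = 0.040). Its second probe, which shares 51 bases with the first, read -0.38 ± 0.13 (SE) with 5 wild-type arrays, as the spot of array 5 had an outlier flag. Array 5 was the lowest wild-type array on the first probe, which read -0.42 ± 0.12 (SE) without it. Without the array labelled wild type 4 the adjusted p was 0.078, and with 1 of arrays 1, 2, 3 and 6 labelled wild type or transgenic arrays 2 and 4 left out it was 0.051 to 0.087. With Agilent's own log ratio the difference was -0.18, in the authors' value table -0.17, and under median centring without loess 0.03, each without a call.

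**Figure D3:**
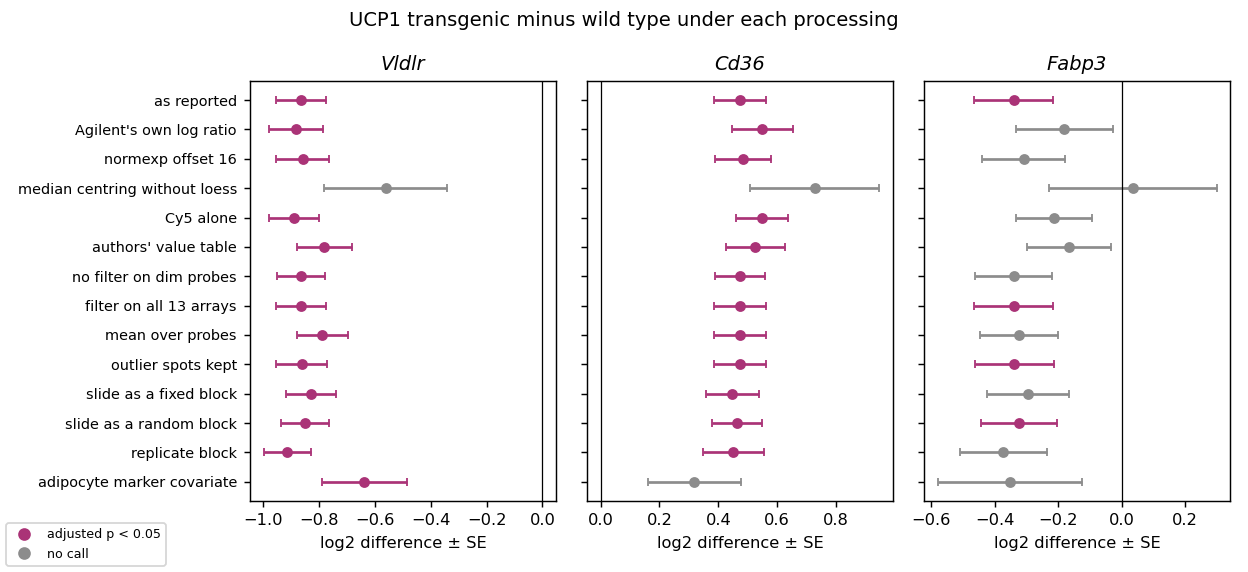
Difference of Vldlr, Cd36 and Fabp3 in log2 units ± SE (horizontal axes), transgenic minus wild type, under each processing tried (rows); purple points passed the threshold and grey points did not. Vldlr kept its side of 0 throughout, from -0.91 to -0.56, and Cd36 from 0.32 to 0.73, while Fabp3 went from -0.37 to 0.03.

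Activation and carnitine uptake showed no call among the 10 genes. Acsl1, which ties fatty acids to coenzyme A at the outer mitochondrial membrane and the endoplasmic reticulum, ranged over -0.43 to 0.01 on wild-type arrays and over -0.22 to 0.19 on transgenic ones. The difference was 0.09, with an interval of -0.09 to 0.27, and 0.19 ± 0.14 (SE) on its second probe. As with Lpl and Angptl4, its lowest wild-type values were those of arrays 5 and 6. Slc22a5, the carnitine transporter, was at -0.19 to 0.13 and -0.24 to 0.28, a difference of 0.02 with an interval of -0.16 to 0.20. It too was dim, with a median signal of 72.6 units over background.

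Some arrays held the lowest value of their group for several members. How often these arrays were the lowest over all genes was not counted, so no trait of the members follows. Array 5 or 6 labelled wild type was the lowest of its group for Cd36, Lpl, Gpihbp1, Angptl4, Fabp3, Slc27a1 and Acsl1. Transgenic array 2 was the lowest of its group for Gpihbp1, Angptl4, Slc27a1 and Slc22a5, and transgenic array 4 for Cd36, Lpl, Vldlr, Fabp3 and Acsl1. In the slow-fibre mean, wild-type arrays 5 and 6 were also the lowest, at -1.07 and -1.10. Among transgenic arrays, however, this mean was lowest on array 6, at 0.03, while arrays 2 and 4 were at 0.14 and 0.11. Whether fibre type has a part in these lows was not tested.

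By the root mean square difference of gene-centred log2 ratios over the 13 arrays, the genes nearest to Cd36 included Coasy (0.11), which makes coenzyme A, and Dgat2 (0.11), which makes triglyceride, among 17132 other genes. Cd36 itself varied by 0.28 on this measure. Nearest to Vldlr were the kinases Camk2b (0.12) and Dyrk2 (0.14), and a transcript with no gene symbol, where Vldlr varied by 0.46. Nearest to Fabp3 were Etfdh (0.12), which passes electrons from fatty acid oxidation to ubiquinone, Plbd1 (0.14) and an unnamed transcript. These are descriptions of these arrays.

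Among 81 other genes of uptake, activation and their control, 65 were measured, and 9 were higher and 11 lower in the same limma test, 30.8% against 33.0% of all genes. Their median difference was 0.02, beside -0.00 for all genes. A called difference of at least 0.5, the size from which related genes are named here, was found in 8.20% of all genes. Of 12 genes of lipoprotein hydrolysis and intracellular lipases, 3 were higher and 0 lower. Lmf1, which folds lipoprotein lipase in the endoplasmic reticulum, was 1.64-fold higher on its brightest probe (0.72 ± 0.08, adjusted p = 1.9e-06), with all 7 transgenic arrays above all wild-type arrays. Its other probe read 0.08 ± 0.07 without a call, but was dim, with a median signal of 39.5 units over background against 573. The offset draws such ratios toward 0, so the sizes on the probes of Lmf1 cannot be compared. The lipases of stored fat, Mgll (0.48, called in 25 of 27 settings) and Lipe (0.25, in 15 of 26), were the other genes called in this list. The settings counted include leaving out each array in turn. Lipe was dim, with a mean log2 Cy5 signal of 6.74 including the offset. Its difference was -0.15 on slide 3 and ran from 0.205 to 0.743 over 6 scalings. Apoe, the apolipoprotein of remnants, was at 0.02.

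Of 5 measured genes of lipoprotein receptors and their chaperone, 1 was lower and 0 higher. Lrpap1, the receptor chaperone, was at 0.09 on its brightest probe and at 0.36 ± 0.06 (SE) on the other.

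Among 7 measured fatty acid binding proteins and acyl-CoA carriers, 1 was higher and 1 lower. Fabp4, the binding protein of fat and capillary cells, rose by 0.33 while Dbi, which binds acyl-CoA, was at -0.36. In Fabp4 no transgenic array (0) lay above all wild-type arrays. Its difference was lowest on slide 3, at -0.18, where the only wild-type array was the one labelled wild type 4. The call of Fabp4 held in 18 of 27 settings and not under median centring. Dbi was called in 25 of 27, also not under median centring, where it was at -0.04. Among 5 measured transport proteins and caveolar genes, 2 were lower and 0 higher. Cav3, the caveolin of muscle, was at -0.52 ± 0.07 (SE, adjusted p = 2.1e-05) with no overlap between the groups, and Slc27a3 was at -0.45. The caveolar coat gene Ptrf, now named Cavin1, was at 0.13, and at -0.10 on its other probe, neither with a call. Neither Cav3 nor Slc27a3 had a call under median centring, where they were at -0.23 and -0.28.

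Of 7 measured acyl-CoA synthetases other than Acsl1, 2 were higher and 3 lower, and 0 higher and 2 lower under median centring. Acsl3, which sits on lipid droplets and the endoplasmic reticulum, was 1.77-fold lower (-0.82 ± 0.09, adjusted p = 5.6e-07). Its probe was dim, with a median signal of 76.3 units over background, so the size of this difference depends on the processing. It was -0.66 under median centring and -1.51 with Agilent's own log ratio. Acsl4, which prefers arachidonic acid, was 1.63-fold lower (-0.71 ± 0.09, adjusted p = 3.0e-06), and Acsl6 was at -0.49. In each of these 3 genes all 7 transgenic arrays lay below all 6 wild-type arrays. Acsl3 and Acsl4 were called in all 27 settings run, and Acsl6 in 26, without a call under median centring. The acetyl-CoA synthetase Acss2 rose by 0.39 and was called in 25 of 27 settings. Acss1 rose by 0.32 but was called in only 14 of 27, with -0.13 on the slide where it was lowest, and Acsf2 was at 0.05. The contrast of these enzymes with Acsl1, at 0.09, was not itself tested.

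**Figure D4:**
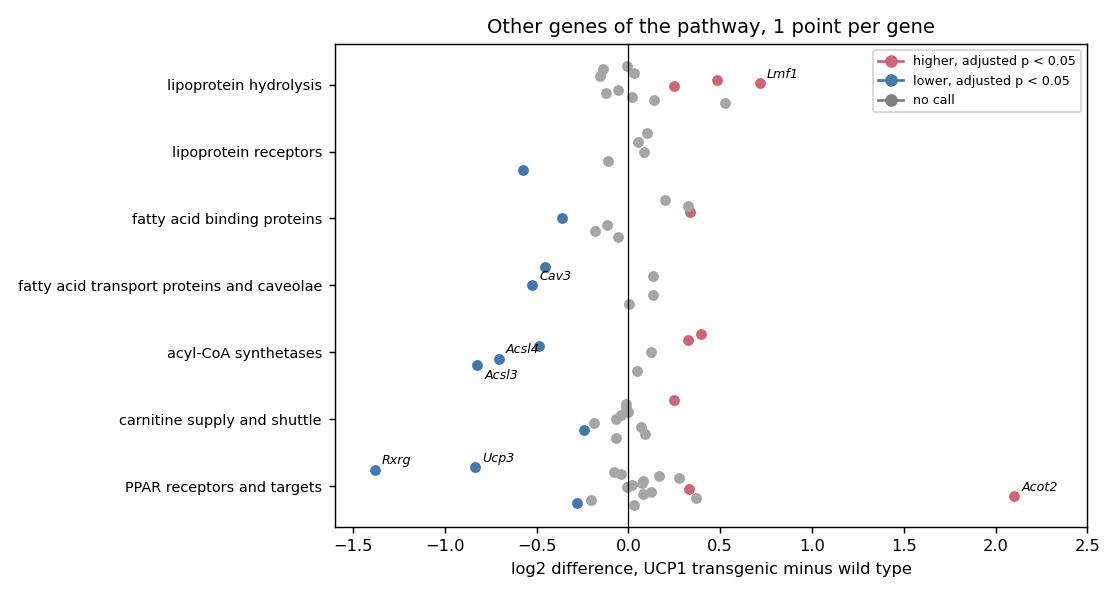
Difference in log2 units (horizontal axis), transgenic minus wild type, of 65 other genes of the pathway in 7 lists (rows), 1 point per gene; red and blue mark genes called higher and lower, grey those without a call, and names stand at the genes named in the text with a called difference of at least 0.5. Acot2 at 2.10 and Rxrg at -1.38 are the outermost points.

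Of 11 genes of carnitine supply and the carnitine shuttle, 1 was higher and 1 lower. Tmlhe, the first enzyme of carnitine synthesis, rose by 0.25 and was called in 22 of 26 settings. Tmlhe had no call under median centring or with Agilent's own log ratio, and was at 0.05 in the authors' value table. Cpt1b, the muscle gate to mitochondrial oxidation, was at -0.24, which was called in 12 of 27 settings and turned to 0.04 under median centring. Mlycd, which removes malonyl-CoA, was at -0.04. Of 18 PPAR receptors, partners and targets, 2 were higher and 3 lower. Acot2, a mitochondrial thioesterase that releases fatty acids from acyl-CoA and so reverses activation, was 4.30-fold higher (2.10 ± 0.13, adjusted p = 1.5e-10). Its transgenic values averaged 0.62 ± 0.29 (SD, n = 7) against -1.48 ± 0.25 (SD, n = 6), with no overlap. Acot1 is a near-identical copy, read 0.37 with no call, and may share signal with the probe of Acot2.

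Rxrg, the retinoid receptor of muscle that pairs with PPARs, was 2.60-fold lower (-1.38 ± 0.09, adjusted p = 4.3e-10) and -0.45 on its other probe. Ucp3, the uncoupling protein of muscle, was at -0.84 ± 0.18 (SE, adjusted p = 0.0012) and at -0.65 on its other probe, with no call under median centring. Acadm, a medium-chain dehydrogenase, was at -0.28 (0.05 under median centring), and Acadvl, its very-long-chain counterpart, at -0.21 without a call. The receptors Ppara (0.08), Ppard (0.28) and Pparg (0.17) had no call, nor had Pdk4, a sensitive PPAR target, at -0.01. The called genes with differences under 0.5, and the PPAR genes without a call, are named in addition to the rule, with their values already known.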

How the data were processed

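RNA of 13 mice was measured on 2-colour Agilent arrays, with the mouse in Cy5 and a common pool in Cy3 and no dye swap. Per the file headers, the deposited files hold linear intensity values of both channels, flags with other values and a log10 ratio, and the submitters' processing notes name Agilent Feature Extraction 10.5.1.1. The authors' deposited value table holds 25583 rows taken as log2, each column with a median of 7.58. Each column followed its array's background-corrected log2 Cy5 signal with a correlation of 0.992 to 0.998, so a higher value was taken as a higher signal. The sources used here do not give its background correction or normalization.

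Mean signals were corrected by normexp (offset 50), and log2 ratios were loess-normalized per array using limma 3.58.1 in R 4.3.3. Control spots and outlier flags (278 to 377 per array) were left out. A probe was kept where 6 or more of the 13 arrays had it well above background in Cy5 (22716 probes), and each gene was read from its brightest one. Groups were compared with lmFit and eBayes, two-sided, with no covariate, over the 13 arrays. The limma step was tested on simulated log2 ratios with independent noise, which leaves the normalization untested. The array files give probe positions in mm9; promoters are from RefSeq, GRCm38.p6.

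The members and lists were chosen with earlier results of these data known. Named were the 10 members, in each list of related genes up to 4 called genes with a difference of at least 0.5 and the brightest gene, and the 3 genes nearest to each called member; a few genes under this rule or in these lists are not reported here by name. Alternatives were other background corrections, scalings, filters, probe rules, slide and replicate blocks, an adipocyte marker covariate and leaving out each array. The 4 slides each held arrays of both groups.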

Additional observations from a re-analysis of the deposited data

Results flagged for a closer look

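Of the 20 sets of values of the members within a group, 3 held an array far from the others by Dixon's criterion, which chance gives in about 1 of 20. Angptl4 read -0.59 on transgenic array 2, where the next lowest transgenic value was 0.13. Vldlr read 0.62 on array 3 labelled wild type, where the next highest wild-type value was 0.27. Acsl1 read 0.19 on transgenic array 5, where the next highest transgenic value was -0.04.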

How the results depend on the processing

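Across 13 other settings Vldlr kept its call in 12, Cd36 in 11 and Fabp3 in 3. Of the members, 1 was higher and 2 were lower as reported. The number higher was 0 under median centring without loess and 0 with the adipocyte marker covariate, and 2 with a fixed slide block. The number lower was 0 under median centring, and 1 with Agilent's own log ratio, with a normexp offset of 16, in Cy5 alone, in the authors' value table, without a filter on dim probes, with the mean over probes, with a fixed slide block and with the adipocyte marker covariate. Leaving out 1 array gave 1 to 2 higher and 1 to 2 lower. Of the related genes 9 were higher and 11 lower as reported, 2 and 3 under median centring, 2 and 7 with the covariate, and 6 to 11 and 10 to 12 with 1 array left out. Over all genes, median centring called 1306 in place of 5691, with 1041 higher and 265 lower, and the covariate 1909. The covariate is nearly the group itself, so calls lost with it do not show a weaker difference.

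Direction changed for Fabp3 (0.0342) and Slc27a1 (0.13) under median centring, for Slc27a1 (0.00083) and Slc22a5 (-0.0050) with the covariate, and for Slc22a5 (-0.0870) in the authors' value table. With 1 array left out Gpihbp1 ran from -0.0393 to 0.0579 and Slc22a5 from -0.0233 to 0.0638. The cause was not tested. No pairing of the mice by replicate number was seen in these values, though 6 pairs cannot exclude one. The deviations of same-numbered arrays correlated at -0.23 to 0.23 over 6 pairs, and 0 of 6 matched best with their own number. With the replicate number as a block, on 12 arrays, 1 member was higher and 1 lower, Gpihbp1 was at -0.0393 and Slc22a5 at -0.0233, and 5365 genes passed. Dim probes such as those of Slc27a4 and Slc22a5 limit what can be seen, since the offset shrinks their ratios.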
